A study of Mus musculus with 30 samples.

Results

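Cerebellum from R191H mice fed 2BAct was compared with cerebellum from R191H mice fed placebo, for all genes of the female expression table. The comparison used 6 of the 30 RNA-seq libraries of the series, 3 from R191H mice on 2BAct and 3 from R191H mice on placebo, chosen by the genotype and diet on their labels. Of the 10512 genes in the table, 10092 had enough unique reads in these 6 libraries to be tested.

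R191H mice are homozygous for an arginine-to-histidine change in Eif2b5, the gene for the ε subunit of eIF2B, knocked in on C57BL/6J, and they model Vanishing White Matter disease. All mice of the comparison were 2-month-old females, per the labels, and had been on the diet for 1 month. The paper's text gives a somewhat older age for the mice of this diet experiment. 2BAct, a small molecule activator of eIF2B, was given at 300 µg per g of meal, and placebo was the same meal without it. The mice compared beside them were WT females of the same age on 2BAct (n = 3) or placebo (n = 3), and untreated R191H and WT males at 2, 5 and 7 months (n = 3 of each genotype at each age). Every library came from the cerebellum of 1 mouse, so each group rests on 3 animals. Both R191H groups carry the mutation and the recombination sites left around Eif2b5 exons. The mutation changes a single codon, so counts per gene cannot check the genotype labels.

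eIF2B recharges the initiation factor eIF2 with GTP so that translation can start. When eIF2B activity drops, through mutation or through phosphorylation of eIF2 by stress kinases, most translation slows while a few mRNAs, including that of the transcription factor ATF4, are translated better. ATF4 and its partners then raise genes for amino acid uptake, serine and one-carbon synthesis, tRNA charging and further stress regulators, a program called the integrated stress response (ISR). In Vanishing White Matter, astrocytes and oligodendrocytes, the cells that make myelin, are the cells known to be most affected.

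With 2BAct, R191H cerebellum had lower levels of ISR transcripts and higher levels of some glial, sterol synthesis and myelin transcripts. At an adjusted p under 0.05 (edgeR quasi-likelihood test, Benjamini-Hochberg adjustment over all genes tested, two-sided), 66 genes differed, which is 0.654% of the 10092 tested. Of these, 37 (0.367%) were lower and 29 (0.287%) were higher in the 2BAct-treated mice. The higher genes held 2 of 18 tested sterol synthesis genes and 2 of 11 tested oligodendrocyte markers. None of these passed in every fit that left out 1 of the 6 libraries. Of 11 tested astrocyte and Bergmann glia markers, 5 were higher and 1 was lower. All 66 had groups that did not overlap, where 11.9% of all genes tested had such groups. The falls were larger: 11 genes fell by more than 1 on the log2 scale and 3 rose by more than 1. The 11 include Rn18s-rs5, at -4.39 with all libraries and -1.13 without R191H placebo replicate 1. Of the 11, Tnc and Eps8l1 were each not called in 2 of the 6 fits that left out a library. Of the 3 rises, Enpp2 was not called in 4 of them. The median log2 fold-change of all genes tested was -0.003 (49% above 0). Around the threshold, the last gene inside had an adjusted p of 0.0492 and the first outside 0.0524.

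**Figure D1:**
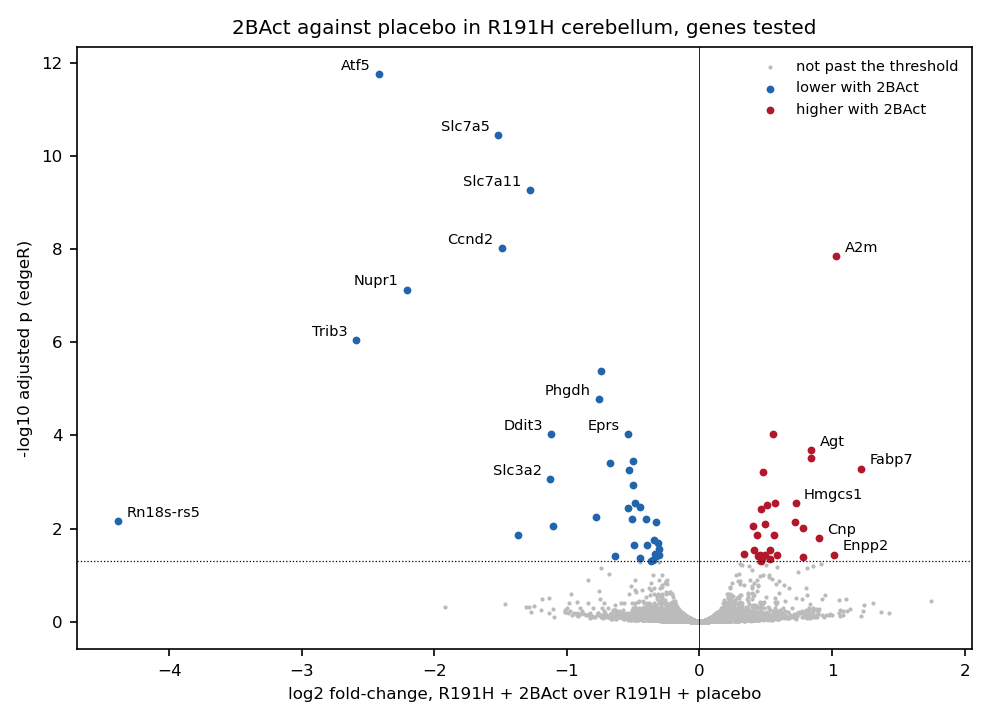
Each point is 1 of the 10092 genes tested, with the log2 fold-change of R191H + 2BAct over R191H + placebo on the x axis and -log10 of the edgeR adjusted p on the y axis, and the dotted line is the threshold of 0.05. Blue points are the 37 lower genes and red points the 29 higher genes. Atf5 is at the top on the left and A2m at the top on the right.

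The 6 libraries held 12873718 to 18619411 unique reads, with 25.6% to 33.4% of them from the mitochondrial genome. R191H placebo replicate 1 stood apart. It was the shallowest library, and 8.25% of its reads came from Rn18s-rs5, a locus matching 18S ribosomal RNA, against 0.128% to 0.415% in the other 11 female libraries. Rn18s-rs5 stood at 87100, 2533 and 3989 CPM (unique reads scaled to library size) on placebo and at 1604, 1586 and 1283 CPM on 2BAct. Its fall of 4.39 on the log2 scale (SE 0.80, adjusted p = 0.00689) was the largest of all, and without placebo replicate 1 it was -1.13. What part of the fall belongs to that library's preparation was not tested. Without placebo replicate 1, 62 genes were called, of which 47 were among the 66. Leaving out 1 of the 6 libraries at a time gave 32 to 97 calls. The lowest count came without placebo replicate 3 and the highest without 2BAct replicate 1. All 66 genes kept their sign in all 6 of those fits, and 25 (17 lower, 8 higher) were called in every one.

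The promoters of several of the lower genes hold the composite element TGATGNAA, to which heterodimers of ATF4 and C/EBP proteins bind. The element, searched on both strands in RefSeq promoter windows (GRCm38.p6, 250 bases before to 50 after the start), was present in 5 of the 31 lower genes that had a window (16.1%) and in 3.97% of all 32851 windows. Its core TGATG alone, which the longer element contains, was in 35.5% of the lower genes and in 39.3% of all windows. These comparisons set shares of genes beside shares of windows, those of untested genes included. The small difference seen for the core is therefore not read in either direction. The sterol regulatory element (SRE-1 consensus) was in 0.234% of all windows, too rare for its absence from the 31 lower genes to be informative. Several listed genes that were tested and not called, among them Aars, Gars, Iars, Tars, Yars, Got1 and Vldlr, also hold the longer element. Windows were found for under 80% of the genes tested and for 23 of the 29 higher genes, also under 80%. The shares of these 2 groups are therefore not compared. The 5 lower genes and Asns, a textbook carrier of the element, are shown with the element in capitals on the gene's own strand, where the element on the opposite strand appears as its reverse complement. They are printed because Trib3, Nupr1 and Slc7a11 were among the largest falls. Arl14ep (-0.35 ± 0.08, adjusted p = 0.0475, not called in 5 of the 6 fits that left out a library, 0.0732 to 0.217) is named for its promoter, after its value was seen.
Trib3: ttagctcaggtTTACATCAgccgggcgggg
Nupr1: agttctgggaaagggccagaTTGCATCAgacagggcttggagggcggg
Slc7a11: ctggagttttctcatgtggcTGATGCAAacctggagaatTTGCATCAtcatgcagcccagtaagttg
Pck2: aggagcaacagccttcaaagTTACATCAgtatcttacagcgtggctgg
Arl14ep: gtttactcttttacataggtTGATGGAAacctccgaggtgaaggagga
Asns: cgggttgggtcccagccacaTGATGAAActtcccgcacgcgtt
These stretches lie at chr2:152344028-152344057 (Trib3, minus strand), chr7:126625553-126625600 (Nupr1, minus), chr3:50443633-50443699 (Slc7a11, minus), chr14:55540143-55540190 (Pck2, plus), chr2:106973133-106973180 (Arl14ep, minus) and chr6:7693210-7693252 (Asns, minus). The Slc7a11 window holds the element once on each strand. The Trib3 element begins at position 15 after the start, and the other five lie upstream of their starts. A match of letters is a description of the promoter and does not show binding.

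Transcription factors and regulators of the ISR fell, Trib3, Atf5 and Nupr1 by more than 2 on the log2 scale. Of the 20 listed, 12 were in the table, 9 were tested, 5 fell and none rose, where 0.367% of all genes tested fell. Trib3, a pseudokinase that feeds back on ATF4, was at 8.86, 9.07 and 13.3 CPM in the 3 placebo libraries and at 1.42, 1.59 and 2.23 CPM in the 3 on 2BAct. Its log2 fold-change was -2.59 ± 0.24 (SE, adjusted p = 8.92e-07), with 26 to 32 unique reads behind each treated value. Both mates of a sequenced pair appear to be counted, so the fragments behind these values were fewer. Atf5, a transcription factor whose own translation rises with the ISR (chr7:44812256-44816658), stood at 70.7, 70.8 and 73.4 CPM on placebo and 12.3, 12.5 and 15.7 CPM on 2BAct. That is a log2 fold-change of -2.42 ± 0.10 (adjusted p = 1.76e-12), the smallest p of all genes, and replicates of each group differed by only a few CPM. Nupr1, a small stress-induced chromatin protein, was at 16.5, 15.9 and 20.2 CPM on placebo and 3.54, 3.13 and 4.81 CPM on 2BAct (log2 fold-change -2.21 ± 0.18, adjusted p = 7.37e-08).

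Ddit3, which encodes the pro-apoptotic factor CHOP, was at 18.9, 17.4 and 17.8 CPM on placebo and 9.58, 7.17 and 8.09 CPM on 2BAct. It fell by 1.12 on the log2 scale (SE 0.14, adjusted p = 9.18e-05). Cebpg, a C/EBP partner of ATF4, had tight groups and a smaller fall, from 96.0, 102.1 and 101.6 CPM to 72.2, 69.5 and 70.0 CPM (-0.50 ± 0.07, adjusted p = 0.000352). Atf4 itself, which is regulated mainly in translation, was lower in all 3 treated libraries (120.4, 115.4 and 119.8 CPM) than in the placebo libraries (137.5, 132.7 and 143.6 CPM), but its difference of -0.22 ± 0.07 did not pass the threshold (adjusted p = 0.233). Ddit4 (-0.11 ± 0.12), Vldlr (0.03 ± 0.16) and Ppp1r15a, the eIF2 phosphatase subunit GADD34 (-0.05 ± 0.38), had overlapping groups. All 5 falls kept their call when any 1 of the 6 libraries was dropped.

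The targeted ISR panel of the study, 15 genes, overlaps this group. Only 8 of its members were in the table, and 7 were tested. Atf5, Slc7a5, Trib3 and Ddit3 fell, and Atf4, Asns and Ppp1r15a did not pass. Over all genes tested, 0.367% fell, and Atf5, Trib3 and Ddit3 were already counted among the regulators above. Asns, asparagine synthetase, read 10.8, 10.3 and 10.9 CPM on placebo and 8.17, 8.99 and 6.70 CPM on 2BAct (-0.42 ± 0.16, adjusted p = 0.489). The groups of Asns did not overlap although the test did not pass. Eif4ebp1, a translation inhibitor, is listed with 0 unique reads in all 6 libraries and was not tested. The paper's separate probe assay found it among the most raised panel transcripts in R191H brain. A count of 0 unique reads is therefore not read as absence. Mthfd2, Atf3, Slc1a5, Gadd45a, Chac1, Slc1a4 and Sesn2 were not analysed here. The panel's median log2 fold-change was -1.12, and its summed level was 438.0 to 489 CPM on placebo and 219 to 237 CPM on 2BAct.

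**Figure D2:**
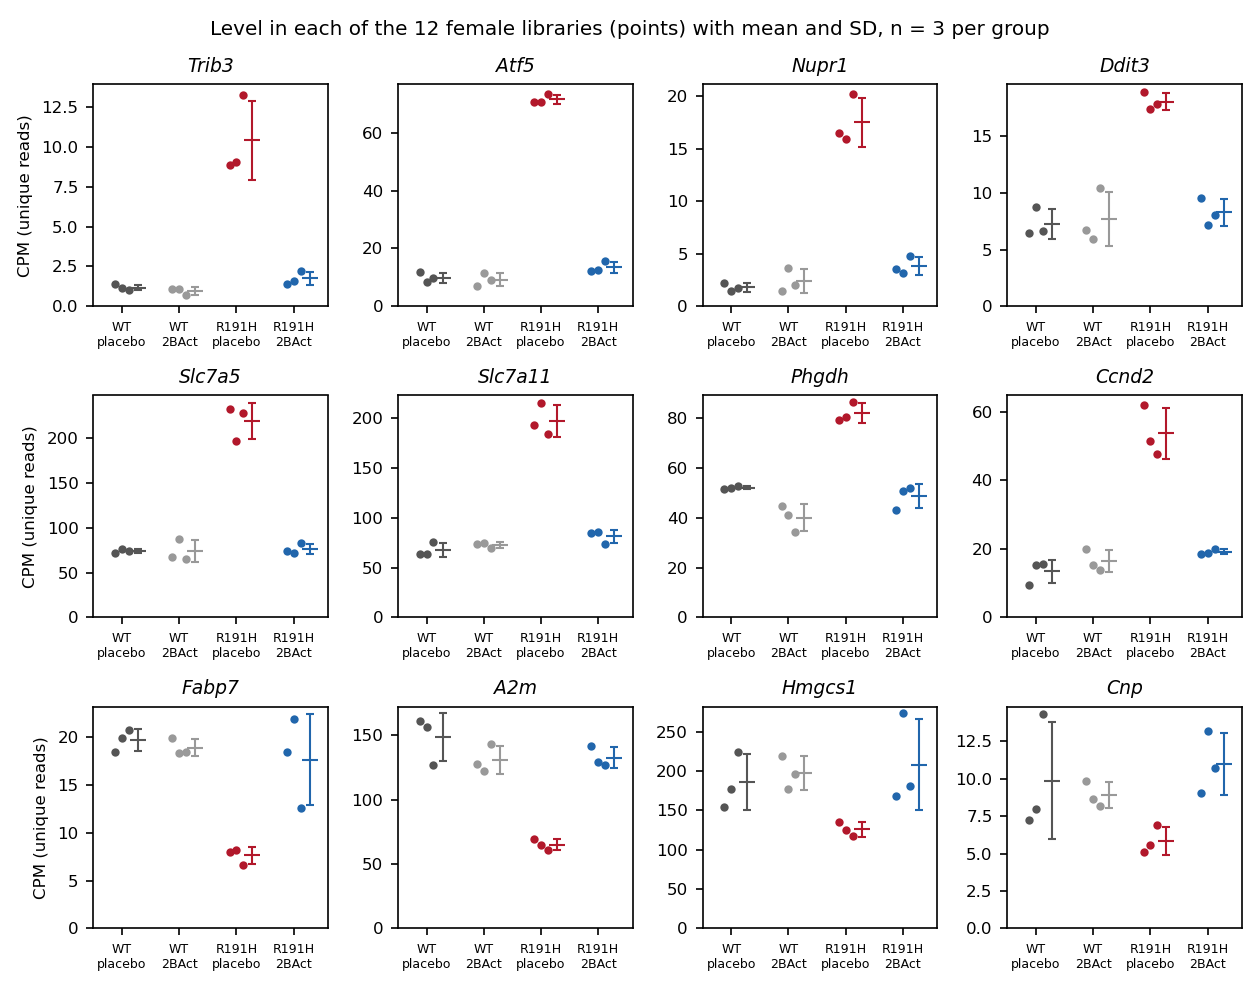
CPM of unique reads (y axis, from 0) for 12 genes in each of the 12 female libraries, with the mean and SD of each group (n = 3) beside its points. For the 8 genes from Trib3 to Ccnd2 the R191H placebo points lie above those of the other groups, and for the 4 genes from Fabp7 to Cnp they lie below, with Atf5 at 70.7 to 73.4 CPM on placebo and 12.3 to 15.7 on 2BAct in R191H.

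Amino acid transporters fell as a group of 3 that act together. Slc7a5 is the light chain of the large neutral amino acid transporter LAT1 (chr8:121881150-121907694), Slc7a11 is the light chain of the cystine-glutamate antiporter, and Slc3a2 is the heavy chain that both need. Slc7a5 was at 232, 196.5 and 228 CPM on placebo and 74.4, 72.1 and 82.6 CPM on 2BAct, a log2 fold-change of -1.52 ± 0.08 (adjusted p = 3.57e-11). Slc7a11 was at 193, 215 and 184 CPM on placebo and 85.0, 85.3 and 73.7 CPM on 2BAct (-1.28 ± 0.08, adjusted p = 5.27e-10). Slc3a2 was at 11.7, 12.7 and 16.1 CPM on placebo and 5.44, 5.803 and 7.39 CPM on 2BAct (-1.13 ± 0.17, adjusted p = 0.000852). The 3 were called whichever library was left out. The 5 other tested transporters did not pass: Slc7a1, the cationic amino acid carrier, gave -0.29 ± 0.20, and Slc38a1, Slc38a2, Slc38a7 and Slc6a9 lay between -0.05 and 0.08. The median of the 8 was -0.17, and 0.367% of all genes tested fell.

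Enzymes of serine, one-carbon and amino acid synthesis were lower in 11 of 13 tested members, with 3 falls, no rise and a median of -0.43. Over all genes tested, 49% lay above 0 and 0.367% fell. Phgdh, the first enzyme of serine synthesis, was at 79.4, 80.4 and 86.5 CPM on placebo and 43.1, 51.0 and 52.2 CPM on 2BAct (-0.76 ± 0.08, adjusted p = 1.67e-05). Pck2, mitochondrial phosphoenolpyruvate carboxykinase, was at 71.1, 56.5 and 71.3 CPM against 48.8, 45.1 and 45.8 CPM (-0.51 ± 0.09, adjusted p = 0.00613). Shmt2, the mitochondrial serine hydroxymethyltransferase, was at 39.7, 32.2 and 39.8 CPM against 25.6, 27.5 and 28.6 CPM (-0.45 ± 0.10, adjusted p = 0.0429). The groups are apart for all 3 genes, most widely for Phgdh. Phgdh was called whichever library was left out, Pck2 was not called without placebo replicate 3 (adjusted p = 0.0859), and Shmt2 was called only when placebo replicate 2 was the one left out (adjusted p 0.0725 to 0.353 in the other 5 fits). Without placebo replicate 3 the list had 1 fall, and without placebo replicate 2 it had 4, Cbs being added. Cbs (-0.48 ± 0.14, adjusted p = 0.229), Psph (-0.43 ± 0.16, 0.497), Aldh18a1 (-1.31 ± 0.49, 0.483, under 2 CPM in every library) and Psat1 (-0.73 ± 0.47, 0.775) did not pass with all libraries.

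Of the 20 cytosolic aminoacyl-tRNA synthetases, which charge tRNAs with their amino acids, all 20 were tested, 17 had a log2 fold-change below 0, and 2 fell. Over all genes tested, 49% lay above 0 and 0.367% fell. Eprs, the glutamyl-prolyl synthetase, was at 149, 149 and 166 CPM on placebo and 103.8, 109.6 and 106.4 CPM on 2BAct (-0.54 ± 0.07, adjusted p = 9.18e-05). Lars, the leucyl synthetase, was at 106.7, 101.7 and 102.3 CPM against 84.0, 78.3 and 72.0 CPM (-0.41 ± 0.07, adjusted p = 0.00622), and was not called without 2BAct replicate 3 (adjusted p = 0.0688). The 18 others, among them Aars (-0.10 ± 0.06), Tars (-0.12 ± 0.08) and Yars (-0.12 ± 0.08), did not pass, and the list's median was -0.12. None of 12 tested mitochondrial synthetases passed, and their median was 0.07.

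The machinery upstream of these genes was not called at the RNA level. The 5 eIF2B subunits gave log2 fold-changes of 0.11 ± 0.14 (Eif2b1), -0.14 ± 0.40 (Eif2b2), 0.05 ± 0.24 (Eif2b3), 0.01 ± 0.40 (Eif2b4) and 0.09 ± 0.08 (Eif2b5), the last being the mutated gene. Eif2b5 read 61.7, 65.9 and 66.8 CPM on placebo and 71.2, 65.0 and 71.0 CPM on 2BAct, so its groups overlapped. Eif2b2 and Eif2b4 had 14 to 32 unique reads a library, and changes of the size of their standard error (0.40) were not detectable at this depth. Among the eIF2 kinases, Eif2ak3 (PERK, -0.36 ± 0.25), Eif2ak4 (GCN2, -0.31 ± 0.29) and Eif2ak1 (HRI, -0.02 ± 0.08) did not pass. None of the 19 tested targets of IRE1 and ATF6, the other branches of the endoplasmic reticulum stress response, passed (smallest adjusted p = 0.782, with 0 at an unadjusted p under 0.05), and their median was -0.02. The chaperone Hspa5 (BiP) gave 0.09 ± 0.17 and Xbp1 0.00 ± 0.07. Mitochondrial stress genes (0 of 8, median 0.00), immediate early genes (0 of 5, median 0.13) and circadian clock genes (0 of 13, median -0.03) had no member past the threshold. Over all genes tested, 0.654% passed and 7.55% had an unadjusted p under 0.05 (edgeR). At 0.654%, lists of these sizes would hold few calls or none, so the lack of calls does not show that they were unchanged. Only 5 of 14 listed immediate early genes and 3 of 4 eIF2 kinases were in the table.

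**Figure D3:**
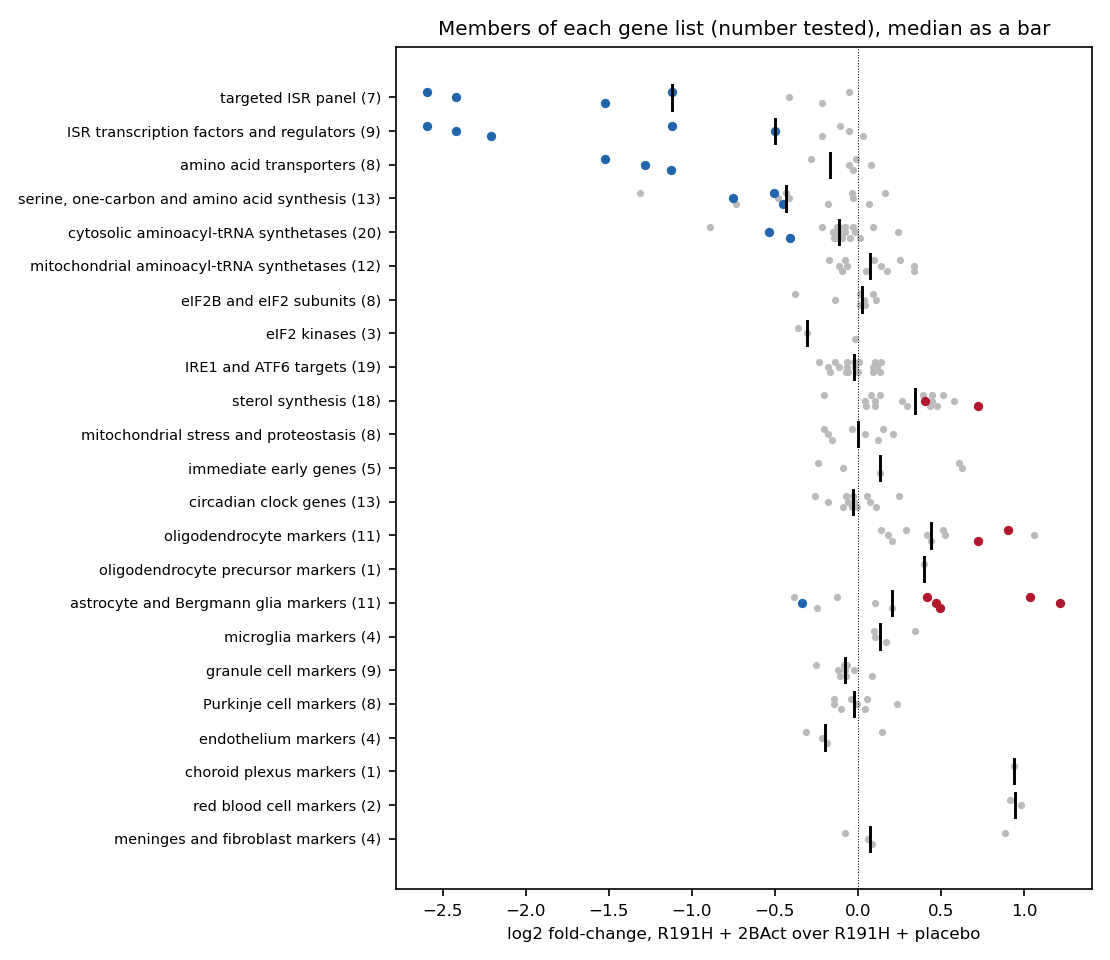
Each point is a tested member of a gene list (rows, number tested in brackets) at its log2 fold-change of R191H + 2BAct over R191H + placebo on the x axis, coloured blue (lower) or red (higher) where the adjusted p was under 0.05, with the list's median as a black bar. The medians of the ISR lists lie left of 0, down to -1.12 for the targeted panel, and those of sterol synthesis (0.35) and oligodendrocyte markers (0.44) to the right.

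Other large falls were outside the ISR lists. Ccnd2, the cell cycle regulator cyclin D2, was at 62.2, 51.6 and 47.8 CPM on placebo and 18.6, 18.9 and 19.95 CPM on 2BAct (-1.49 ± 0.10, adjusted p = 9.44e-09). Tril, a membrane protein that aids Toll-like receptor signalling in glia, was at 229.9, 209.6 and 254 CPM against 131.6, 149.8 and 133.1 CPM (-0.74 ± 0.08, adjusted p = 4.1e-06). Both were called in every fit that left out a library. Npy, neuropeptide Y, was at 15.4, 17.2 and 18.6 CPM against 8.82, 9.79 and 11.4 CPM (-0.78 ± 0.14, adjusted p = 0.00567; 0.0759 without placebo replicate 3). Tnc, the matrix protein tenascin C, gave -1.10 ± 0.21 (adjusted p = 0.009) and Eps8l1 -1.37 ± 0.27 (0.0137), both from under 11 CPM in every library. Tnc was not called without placebo replicate 2 (0.0596) or 3 (0.108), nor was Eps8l1 (0.11 and 0.0759). The remaining 17 falls ranged from -0.30 to -0.68.

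The largest rises were those of Fabp7 and A2m, 2 listed astrocyte markers, but the markers changed in both directions. Of the 12 listed markers of astrocytes and Bergmann glia, the radial astrocytes of the cerebellum, 11 were tested, 5 rose and 1 fell. Of the 11, 7 lay above 0 and 4 below, with a median of 0.205, and 49% of all genes tested lay above 0. Over all genes tested, 0.287% rose and 0.367% fell. A2m, α2-macroglobulin (chr6:121635376-121679227), was at 69.1, 64.7 and 60.8 CPM on placebo and 141.7, 129.3 and 126.8 CPM on 2BAct (1.03 ± 0.07, adjusted p = 1.4e-08). Fabp7, the brain lipid-binding protein of radial glia, was at 8.04, 8.22 and 6.64 CPM against 18.5, 22.0 and 12.6 CPM (1.22 ± 0.18, adjusted p = 0.000513). Both genes were called whichever library was left out, and the treated libraries of Fabp7 spread more than the placebo ones. Gja1 (connexin 43, 0.47 ± 0.08, adjusted p = 0.00378), Gfap, the astrocyte filament protein (0.49 ± 0.11, 0.0369), and Aqp4, the water channel of astrocyte endfeet (0.41 ± 0.09, 0.029), rose less. Hepacam, an astrocyte adhesion protein, fell from 119.5, 109 and 120 CPM to 84.8, 94.4 and 97.5 CPM (-0.34 ± 0.07, adjusted p = 0.036).

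The calls of Gfap, Aqp4, Gja1 and Hepacam were lost when certain libraries were left out, while their direction held. Gfap was at 73.0, 63.4 and 59.7 CPM on placebo and 81.8, 113.7 and 79.7 CPM on 2BAct, with 2BAct replicate 2 the highest. It was not called without that library (0.31, adjusted p = 0.27), nor without placebo replicate 2 (0.47, 0.118) or 3 (0.43, 0.352). Aqp4 was not called without 2BAct replicate 2 (log2 fold-change 0.30, adjusted p = 0.217), placebo replicate 1 (0.41, 0.0574) or placebo replicate 3 (0.34, 0.348), and Gja1 not without placebo replicate 3 (0.41, 0.0759). Hepacam was called only with all libraries or without placebo replicate 2 (-0.28 to -0.38, adjusted p 0.052 to 0.276 in the other 5 fits). Across these fits the list had 2 to 5 rises. Slc1a3 (-0.25 ± 0.07, adjusted p = 0.153), Hopx (-0.38 ± 0.11, 0.193) and S100b (0.21 ± 0.06, 0.255) had groups apart without passing, in both directions. The summed level of all 12 markers overlapped, at 2754 to 2913 CPM on placebo and 2803 to 2921 CPM on 2BAct. In bulk tissue, fewer cells of a type and less RNA per cell cannot be told apart.

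Other rises were outside the marker lists. Ntsr2, a neurotensin receptor, was at 27.4, 20.7 and 22.4 CPM on placebo and 37.7, 48.6 and 39.5 CPM on 2BAct (0.84 ± 0.12, adjusted p = 0.000311). Agt, angiotensinogen, was at 42.5, 31.4 and 48.4 CPM against 72.1, 78.6 and 68.2 CPM (0.84 ± 0.11, adjusted p = 0.000207). Sparc, a secreted matrix glycoprotein, was at 290.3, 299 and 345 CPM against 419, 438 and 446 CPM (0.48 ± 0.07, adjusted p = 0.000617). In all 3 the lowest treated library lay above the highest placebo library. Slc25a18, a mitochondrial glutamate carrier (0.51 ± 0.09, adjusted p = 0.00316), and Rflnb, a filamin-binding protein (0.57 ± 0.10, 0.00286), rose as well, and these 5 genes were called in every fit that left out a library. Pygm, glycogen phosphorylase (0.78 ± 0.15, adjusted p = 0.00953), was not called without 2BAct replicate 3 (0.0732) or placebo replicate 2 (0.0538). Etnppl, an enzyme of phosphoethanolamine breakdown (0.59 ± 0.13, 0.0362), stayed called only without 2BAct replicate 2 or placebo replicate 3 (0.103 to 0.15 in the other fits), and Itih3 (0.78 ± 0.18, 0.0405) in none (0.0676 to 0.18). The remaining 11 rises ranged from 0.34 to 0.56.

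Genes of sterol synthesis were higher in 17 of 18 tested members, and 2 of them rose. Their median log2 fold-change was 0.35. Over all genes tested, 49% lay above 0 and 0.287% rose. Hmgcs1, which makes the HMG-CoA used for cholesterol, was at 135, 125 and 117 CPM on placebo and 168, 274 and 181 CPM on 2BAct (0.73 ± 0.12, adjusted p = 0.00284). Insig1, a sterol sensor that is itself raised when SREBP2 is active, was at 83.0, 82.2 and 77.8 CPM against 101, 118 and 102 CPM (0.40 ± 0.08, adjusted p = 0.00868). In both, 2BAct replicate 2 was the highest. Cyp51 (0.44 ± 0.10, adjusted p = 0.0524) and Fdft1 (0.44 ± 0.13, 0.174) had groups apart but did not pass. Sqle, squalene epoxidase, gave 0.14 ± 0.32 with overlapping groups.

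Oligodendrocyte markers lay above 0 in 11 of 11 tested members with a median of 0.44, and 2 rose. Over all genes tested, 49% lay above 0 and 0.287% rose. All members were read in the same 6 libraries, so the count by sign is a description. Mal, a myelin proteolipid, was at 128, 99.2 and 91.5 CPM on placebo and 130.3, 222 and 172 CPM on 2BAct (0.72 ± 0.13, adjusted p = 0.00735). Cnp, a myelin-associated phosphodiesterase, was at 5.09, 5.56 and 6.90 CPM against 9.04, 13.2 and 10.7 CPM (0.90 ± 0.18, adjusted p = 0.0162). The major myelin gene Mbp (0.14 ± 0.11, adjusted p = 0.816) had overlapping groups. Enpp2, autotaxin, which oligodendrocytes and choroid plexus both make, was at 4.76, 3.27 and 3.32 CPM against 5.99, 9.44 and 7.25 CPM (1.01 ± 0.22, adjusted p = 0.0362). It was not called without 2BAct replicate 2 (0.375) or 3 (0.0732), or placebo replicate 2 (0.132) or 3 (0.26).

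The calls among sterol and myelin genes depended on which library was left out. The summed oligodendrocyte level was 942, 756 and 774 CPM on placebo and 809, 1306 and 1002 CPM on 2BAct, so the groups overlapped, and the summed sterol level was 642, 578 and 550.1 CPM against 691, 956 and 718 CPM. The sterol sums did not overlap, with or without 2BAct replicate 2. That library was highest in both sums, and of the 6 it also had the lowest summed granule (3317 CPM) and Purkinje (3568 CPM) marker levels and the highest mitochondrial share (33.4%). Without it the oligodendrocyte median fell to 0.17 with Mal alone called (Cnp adjusted p = 0.18), and the sterol median to 0.23 with Hmgcs1 alone called (Insig1 0.0591). Without 2BAct replicate 1, the lowest treated library in both sums, each list had 5 rises. Without placebo replicate 3 no sterol gene was called (Hmgcs1 0.0531, Insig1 0.107) and Mal was lost (0.132), and without placebo replicate 2 no oligodendrocyte marker was (Mal 0.0596, Cnp 0.07). Without placebo replicate 1, Cnp was not called (0.0555) and 4 sterol genes were. The part of these library differences in the single gene differences was not tested.

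Markers of the other cell types of the cerebellum had no member past the threshold, where 0.654% of all genes tested passed. At that share, lists of this size would hold few calls or none, so the lack of calls is a description. Only 5 of 10 listed microglia, 4 of 7 endothelium and 5 of 7 meningeal markers were in the table. None of 9 granule cell markers (median -0.08), 8 Purkinje cell markers (median -0.02), 4 tested microglia markers (median 0.13), 4 endothelium markers (median -0.20) or 4 meningeal markers (median 0.07) was called. Granule and Purkinje cell markers were present throughout, with summed levels of 3317 to 3960 and 3568 to 3994 CPM in the 6 libraries. The choroid plexus list had only Ttr in the table, the other 6 markers being absent from it. Ttr ranged from 10.3 to 786 CPM on placebo and 301 to 1082 CPM on 2BAct (0.94 ± 0.66, adjusted p = 0.805), which is a wide spread within each group. The haemoglobin gene Hbb-bs was at 3.45, 6.41 and 5.04 CPM against 9.96, 7.17 and 11.4 CPM (0.91 ± 0.22, adjusted p = 0.0587).

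In WT mice the same diet gave no call in the edgeR test. With 10054 genes tested (edgeR), 0 had an adjusted p under 0.05 in WT + 2BAct against WT + placebo, the smallest adjusted p was 0.922, and 353 genes (3.51%) had an unadjusted p under 0.05, against 762 (7.55%) in R191H. DESeq2 also called 0 in WT, edgeR called 0 to 2 when 1 WT library was left out, and limma on the deposited ln TPM called 34. For the 66 genes called in R191H, the WT difference was smaller in size in 66 of 66. Their WT log2 fold-changes ran from -0.38 to 0.43, with a median size of 0.08 against 0.54 in R191H. The 66 were chosen for their difference in R191H, so the sizes are a description. The most negative was Phgdh, at 51.6, 51.9 and 52.7 CPM in WT mice on placebo and 44.8, 41.3 and 34.1 CPM on 2BAct (-0.38, unadjusted p = 0.000862, not past the adjusted threshold).

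**Figure D4:**
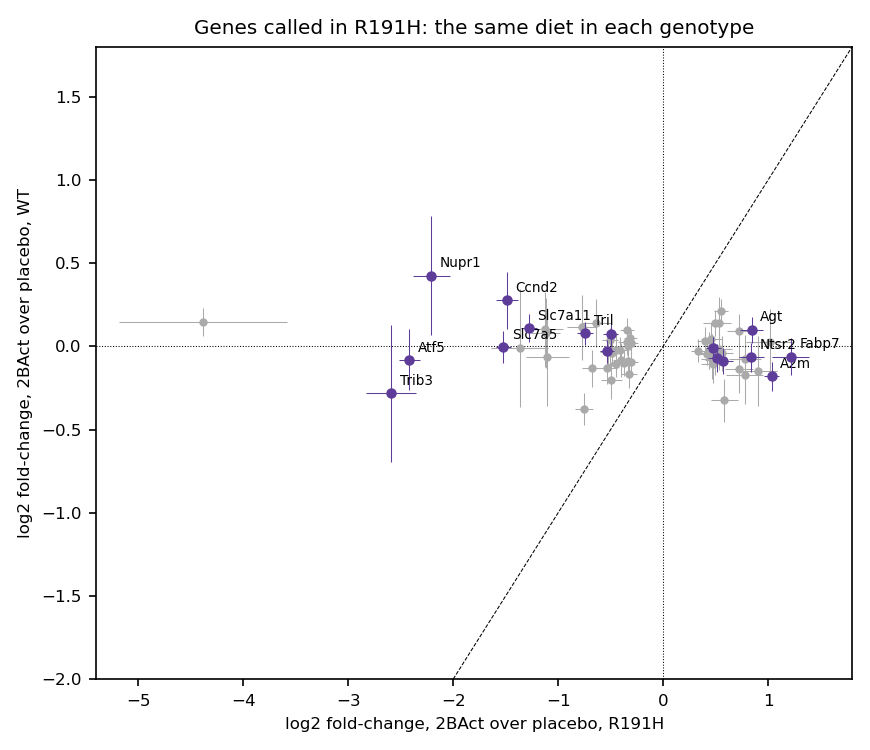
Each point is 1 of the 66 genes called in R191H, with the log2 fold-change of 2BAct over placebo in R191H mice on the x axis and in WT mice on the y axis, bars showing 1 SE and the dashed line equal effects. Purple points are the 16 genes whose effect differed between the genotypes in the interaction test. All WT values lie between -0.38 and 0.43.

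The difference of the 2BAct effect between genotypes was tested directly, as the interaction of genotype and diet over the 12 female libraries. It passed for 16 of 10200 genes (0.157%), 9 (0.0882%) with a more negative effect in R191H and 7 (0.0686%) with a more positive one, and all 16 were among the 66. The more negative ones were Slc7a11 (-1.39, adjusted p = 3.25e-07), Slc7a5 (-1.52, 3.25e-07), Atf5 (-2.34, 3.25e-07), Ccnd2 (-1.76, 8.01e-05), Tril (-0.82, 0.000114), Nupr1 (-2.64, 0.000732), Cebpg (-0.58, 0.00492), Eprs (-0.51, 0.01) and Trib3 (-2.31, 0.026). The more positive ones were A2m (1.21, 2.75e-06), Ntsr2 (0.91, 0.00492), Fabp7 (1.28, 0.00578), Rflnb (0.66, 0.0177), Sparc (0.49, 0.0313), Agt (0.74, 0.0376) and Slc25a18 (0.58, 0.0465). No sterol or oligodendrocyte gene was among them: the interaction was 0.635 for Hmgcs1 (adjusted p = 0.484) and 1.05 for Cnp (0.401). Phgdh also did not pass (-0.38, 0.681), its WT value being -0.38, and Ddit3 missed the threshold (-1.196, 0.0678).

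Most genes that were higher in untreated R191H males than in WT males, and that could be tested in the females, fell with 2BAct. The male libraries share no animal with the female ones, and 46 of 9496 genes (0.484%) differed between untreated R191H and WT males at 2 months (edgeR), 39 higher (0.411%) and 7 lower (0.0737%) in R191H. Of the 39, 28 were in the female table and tested, and 26 of them fell with 2BAct in female R191H mice, where 0.367% of all genes fell. Their median log2 fold-change was -0.54, against 0.01 for the same 28 genes in WT females on the same diet. The 2 that did not pass were Hopx (-0.38 ± 0.11, adjusted p = 0.193) and Gm43789 (0.01 ± 0.15). Of the 7 genes lower in R191H males, all were tested and 5 rose with 2BAct: A2m, Fabp7, Ntsr2, Etnppl and Slc25a18. Lcat, the cholesterol esterifying enzyme, did not pass (0.205 ± 0.08, adjusted p = 0.536), and Rn18s-rs5, lower in R191H males (-0.90), also fell with 2BAct.

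For the genes of largest effect the values stood as follows. Trib3 was 2.97 higher on the log2 scale in R191H males than in WT males and 2.59 lower with 2BAct in R191H females. The corresponding pairs were 2.70 and -2.42 for Atf5, 3.01 and -2.21 for Nupr1, 1.62 and -1.52 for Slc7a5, and -1.11 and 1.03 for A2m. Read from the other side, 63 of the 66 genes called with 2BAct were tested in the males, 60 of these had the opposite sign, and 31 were called there with the opposite sign. Of the 9068 genes tested in both, 55.3% had opposite signs. At 5 months, 23 of the 67 tested genes higher in R191H males fell with 2BAct (66 of 67 below 0), and 10 of the 32 tested genes lower in R191H males rose (24 above 0 and 8 below, median 0.19). At 7 months, 19 of 24 fell and 9 of 11 rose. The females and these males differ in sex and, by the paper's text, in age, and were deposited in separate tables, so no level was compared between them.

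**Figure D5:**
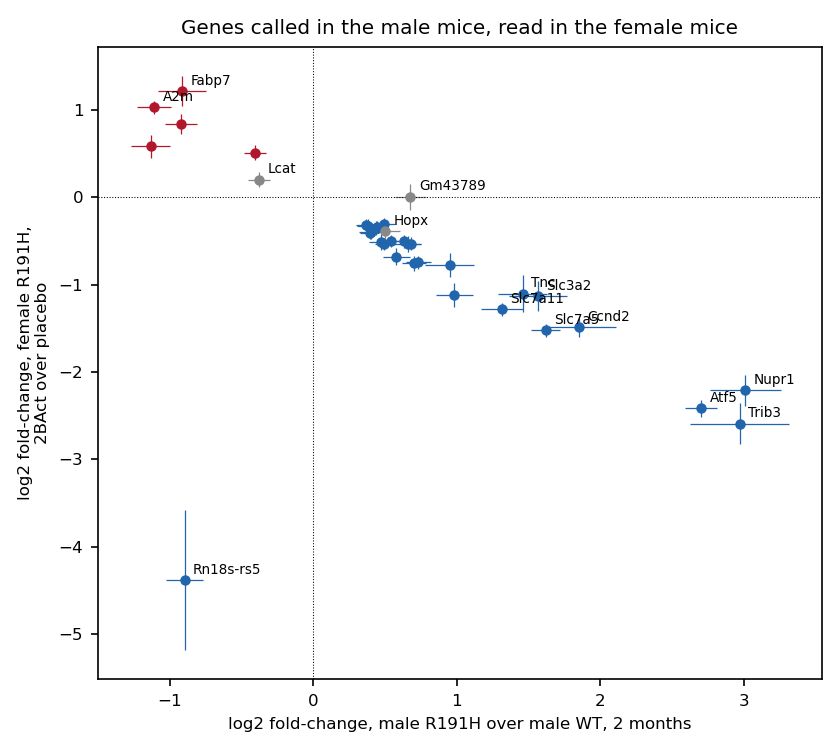
Each point is 1 of the 35 genes called between R191H and WT males at 2 months that could be tested in the females, with the male log2 fold-change on the x axis and the female R191H log2 fold-change of 2BAct over placebo on the y axis, bars showing 1 SE. Blue and red points passed in the females (lower and higher) and grey points did not. Apart from Rn18s-rs5 at the lower left and Gm43789 near 0, the points fall from upper left to lower right.

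The levels in 2BAct-treated R191H mice were also set beside those of WT mice on placebo. Of the 66 genes, 56 (84.8%) had a range in R191H + 2BAct that overlapped the range in WT + placebo, and of all 10092 genes 89.6% did, a similar share. Lying apart was thus about as frequent among the 66 as among all genes, and R191H + 2BAct was not tested against WT + placebo. The 10 that lay apart are listed as a description and were of 3 kinds. Trib3, Atf5, Nupr1, Ccnd2, Cebpg and Chpt1 fell with 2BAct but stayed above every WT placebo library, with Atf5 at 12.3 to 15.7 CPM against 8.26 to 11.7 CPM and Trib3 at 1.42 to 2.23 CPM against 1.02 to 1.37 CPM. Sparc and the noncoding RNA Neat1 rose past the WT range, Neat1 lying between 101.3 and 112.7 CPM on placebo and between 149 and 169 CPM on 2BAct, where WT mice on placebo had 143, 122 and 136 CPM. Rn18s-rs5 and Ppm1m fell below it. Chpt1, Neat1 and Ppm1m are named here because of this count, after their values were seen, and Ppm1m and Chpt1 lost their call in 5 and 4 of the 6 fits that left out a library (adjusted p 0.0614 to 0.285 and 0.0747 to 0.144).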

How the data were processed

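Cerebellum RNA from 1 mouse per library was prepared by the authors with a stranded total RNA kit after ribosomal RNA depletion, sequenced, and mapped with STAR 2.5.3a to mm10 with Gencode and UCSC transcripts. Whether counting used strand is not given in the sources used here. The authors deposited, per gene, unique read counts and natural log (ln) TPM estimated by MMSEQ. Of the deposited counts, 86.8% to 88.2% were even, so both mates of a pair appear to be counted. The deposited ln TPM values are held at -1.2 in all 3 libraries of a group for 3412 genes in R191H + placebo and 1286 in R191H + 2BAct, so the counts carry the main tests. Unique reads are only part of a gene's reads, so levels were not compared between genes. The authors' own effect sizes, posterior probabilities and group means were not used.

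Counts were tested with the quasi-likelihood test of edgeR 4.0.16 (R 4.3.3, filterByExpr with a minimum count of 10, TMM scaling) and Benjamini-Hochberg adjustment at 0.05. The interaction was fitted over the 12 female libraries. CPM values are unique reads scaled to TMM-adjusted library sizes. Errors are SE of the log2 fold-change. Libraries of a group are separate mice. Within each R191H group, no 2 libraries agreed within sampling noise (chi-square per degree of freedom at least 5.73, on counts that appear to include both mates). Replicate numbers did not pair the groups, the correlations of same-numbered deviations being -0.04, 0.03 and 0.01. DESeq2 1.42.0, limma 3.58.1 on ln TPM and other filters and scalings were alternatives. The scripts were tested on simulated data.

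The genes named are the targeted ISR panel, the eIF2B subunits, list members past the threshold, up to 4 further members of each list by p, the 12 largest falls and rises, and the genes of the interaction. The members and gene lists were chosen with earlier results of these data known. Sequences are RefSeq promoters (GRCm38.p6). Some genes of the lists are not reported here by name.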

Additional observations from a re-analysis of the deposited data

Results flagged for a closer look

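The effect of 2BAct differed between R191H and WT mice for 16 genes in the interaction test of edgeR over the 12 female libraries (adjusted p under 0.05). The values are log2 differences of the 2 effects, R191H minus WT. The difference was below 0 for Nupr1 (-2.64), Atf5 (-2.34), Trib3 (-2.31), Ccnd2 (-1.76), Slc7a5 (-1.52), Slc7a11 (-1.39), Tril (-0.82), Cebpg (-0.58) and Eprs (-0.51). It was above 0 for Fabp7 (1.28), A2m (1.21), Ntsr2 (0.91), Agt (0.74), Rflnb (0.66), Slc25a18 (0.58) and Sparc (0.49).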

How the results depend on the processing

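The 66 calls in R191H ranged from 32 to 97 when 1 library was left out, the WT count of 0 from 0 to 2, the interaction count of 16 from 12 to 19, the 31 male-list genes called with the opposite sign from 22 to 28, and the 23 calls within the gene lists from 14 to 28. Raising the filter to an average TPM of 1 or more (4341 genes tested in R191H) gave 21 calls in R191H, 3 in the interaction, 9 in the male list and 10 in the gene lists. limma on ln TPM gave 136 in R191H, 34 in WT, 25 in the interaction and 19 in the male list. Of the 66 genes, 32 were among the 136 and 64 kept their sign, and Shmt2, not called there, turned from -0.45 to 0.036. Without the genes held at 1 ln TPM value in either R191H group (3437), an alternative chosen after seeing the data, limma called 10. DESeq2 called 77 in R191H and 26 in the interaction. The cause of these differences was not tested. With the replicate number as a block, which the design does not give as a pairing, 48 genes were called in R191H, 42 of them among the 66, and 15 in the interaction. Size factors of DESeq2 (63), library totals (87), no filter (67), all 12 libraries in the fit (58), no mitochondrial-genome genes (63) and read pairs (65, also added after seeing the data) stayed within 1.5 times the count in R191H. The male lists at 5 and 7 months were added after seeing the data as well. With 3 mice a group, small changes of genes with few unique reads were not detectable.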
